A study of Homo sapiens with 8 samples.

Results

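The 7 stable lines of DAOY cells were compared, as 1 group, with the untransfected cells they came from. DAOY is an established human medulloblastoma line, a tumour of the cerebellum. Of the 8 arrays in the series, 5 held numbered stable lines with the plasmid pHM6-MXD3, 2 held numbered stable lines with the empty vector pHM6, and 1 held the parental line with no transgene. Per the labels' protocols, stable lines were selected and kept in medium with 800 µg/ml G418, and no selection is named for the parental cells. Transfection and selection separate all 7 lines from the parental cells and cannot be told apart here. The labels do not say whether a numbered line was 1 clone or a pool, when it was grown, or which promoter drove MXD3. With 1 parental array, the p-values measure only the spread between the stable lines, and the parental array was assumed to vary as they do.

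G418 is an aminoglycoside that binds the ribosome and disturbs protein synthesis, and cells survive it through a resistance gene carried on the plasmid. Plasmid DNA in a cell can meet DNA sensors that feed the interferon pathway, and a line grown from few cells keeps whatever expression pattern those cells had. The product of MXD3 belongs to the MXD proteins, partners of MAX that counter the gene activation by MYC.

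Each array read 22184 probes, of which 60.55% to 64.01% were detected in the stable lines and 63.66% in the parental cells (detection p-value under 0.05, as deposited). Between the parental array and a stable line, Pearson's r over the genes ranged from 0.969 to 0.983, and between any pair of stable lines from 0.972 to 0.987, as a description of these arrays. The MXD3 probe read 7.47, 7.22, 6.98, 8.08 and 6.18 in MXD3 lines 1 to 5, 6.93 and 6.71 in vector lines 1 and 2, against 6.59 in the parental cells. The array labelled MXD3 line 5 thus lay below the vector and parental arrays for its own transgene, and lines are called by their labels throughout. Levels are log2 intensities after background correction and quantile normalization, so a difference of 1 is a doubling, and levels of different probes are not compared.

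Of 12162 genes, 2 passed limma's test (adjusted p under 0.05) as higher in the stable lines, which is 0.0164% of those tested, and 0 passed as lower. At an unadjusted p under 0.05 there were 783 higher (6.44%) and 499 lower (4.1%). A gene was described as one-sided when all 7 stable lines lay on one side of the parental array, a count in which the 7 comparisons share that array. This held for 4136 genes (34%), with 2101 above (17.3%) and 2035 below (16.7%). With no change at all, 1 array of 8 would still be the lowest or the highest in many genes. The count alone is therefore no measure of change. For 28 genes (0.23%) every stable line lay above the parental array by at least 1 log2 unit, and for 11 genes (0.0904%) every line lay below it by as much. At a gap of 0.5 or more there were 274 above (2.25%) and 122 below (1%). Without MXD3 line 5, 2 genes passed as higher and 0 as lower, and the remaining 6 lines lay above for 2423 genes and below for 2278. With 1 array against 7, an exact two-sided permutation test of 1 value has 8 splits and cannot go below p = 0.125. A one-sided pattern can come from the stable lines or from the parental array alone, and the design does not separate these.

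The widest gap between the parental array and the nearest stable line was that of RNA28SN5, which encodes the 28S RNA of the large ribosomal subunit. It read 14.68, 14.91, 14.46, 14.87 and 14.50 in MXD3 lines 1 to 5, 14.63 and 14.59 in vector lines 1 and 2, against 11.40 in the parental cells. The groups did not overlap, and the stable lines lay much closer to each other than to the parental array. Each array read RNA pooled over a culture, so a change in the share of cells and a change in the level per cell cannot be told apart. Whether the preparation or labelling of the lone parental sample played a part was not tested. RNA28SN5 rose by 3.26 ± 0.21 (SE, 7 lines against 1 array), or 9.59-fold, with an adjusted p of 0.000592 in limma's test, and it was higher in 7 of 7 lines. The ± of a difference is the SE of this fit throughout. No other ribosomal RNA and 0 of 13 listed small non-coding RNAs were measured. The genes of the proteins that surround this RNA were split. Of 38 measured cytosolic ribosomal protein genes, 5 lay above the parental array in all lines (13.2% against 17.3% of all genes). Another 5 lay below (13.2% against 16.7%), and the median difference was -0.05. That split moved with the scaling, to 0 above and 12 below under median scaling and 0 above and 7 below with the authors' normalized values. With gene span (the length of the gene) regressed out it was 6 above and 4 below. Some members above were very bright and cleared the parental array by little, with gaps of 0.015 for RPS16 and 0.013 for RPL8. RPS16 read the same 16.05 in MXD3 lines 1, 3 and 5 and vector line 1, against 15.99 in the parental cells. Whether the brightest signals were compressed was not tested. RPS6 differed by 0.20 ± 0.17 and RPL7 by -0.41 ± 0.25. RPL8 gave 0.08 with its brightest probe and -0.81 with its other probe.

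GRAMD1C was the second gene to pass. It encodes a GRAM domain protein that moves sterols between membranes. In MXD3 lines 1 to 5 it read 7.05, 7.10, 7.04, 7.12 and 7.20, in vector lines 1 and 2 7.26 and 6.96, and in the parental cells 5.39, where it was not detected. GRAMD1C rose to a level at least 2.75-fold above the lowest detectable signal of the parental array, and was higher in 7 of 7 lines. That bound sets the mean of the stable lines against the dimmest probe detected on the parental array. The adjusted p of 0.0173 (limma) belongs instead to the log2 difference of 1.71, which uses the undetected parental reading. The call ended with another background correction (log2 difference 0.92, adjusted p = 0.103) and in 5 of the 7 fits that left out 1 line (MXD3 line 1, 2, 3 or 4, or vector line 1). Just outside the threshold, all at an adjusted p of 0.0555, stood MAP4, SPTAN1, EP300, MRC2 and HUWE1.

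Those 5 genes differed by 1.40 to 1.64 in the same direction. MAP4, a microtubule-binding protein gene, ranged from 8.16 to 8.54 in the stable lines (median 8.41) against 6.79 in the parental cells. EP300, a histone acetyltransferase gene, ranged from 8.80 to 9.20 (median 8.94) in the stable lines against 7.47 in the parental cells. SPTAN1, which encodes the alpha chain of non-erythroid spectrin, ranged from 11.41 to 11.71 (median 11.50) against 10.13. In each of them the stable lines lay close together and the parental array stood alone below. Genes taken by their small p in this test tend to show that pattern, since its spread comes from the stable lines alone. MRC2, a collagen uptake receptor gene, was at 7.36 to 7.93 in stable lines and 5.92 in the parental cells, and HUWE1, a large ubiquitin ligase gene, at 8.47 to 8.97 in stable lines and 7.20 in the parental cells.

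Several surface and secreted proteins stood among the 12 genes furthest above the parental array. CLDN1, a tight junction protein gene, read 9.86, 10.57, 10.49, 10.03 and 10.46 in MXD3 lines 1 to 5, 10.62 and 8.77 in vector lines 1 and 2, against 7.08 in the parental cells. Vector line 2 lay apart from the other lines, and even it was 1.69 above the parental array. The difference of 3.04 ± 0.58 had an adjusted p of 0.151, and without vector line 2 it was 3.26 with an adjusted p of 0.0207 (limma). LRRN3, a neuronal leucine-rich repeat protein gene, read 10.15, 10.71, 10.82, 11.37 and 10.26 in MXD3 lines 1 to 5, 10.07 and 9.45 in vector lines 1 and 2, against 7.79 in the parental cells. All 7 lines lay at least 1.66 above that array, with the 2 vector lines lowest, and the difference was 2.61 ± 0.55 (adjusted p = 0.152). FST encodes follistatin, a secreted protein that binds activins and some BMPs. It read 9.01, 10.48, 10.30, 9.51 and 9.70 in MXD3 lines 1 to 5, 10.97 and 9.04 in vector lines 1 and 2, against 7.44 in the parental cells, a difference of 2.42 ± 0.65 (adjusted p = 0.248). Its other detected probe gave 1.82, with all 7 lines above a parental array on which that probe was not detected.

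The rest of these 12 included genes that the parental array did not detect. BMF, a BH3-only gene of the BCL2 family that promotes apoptosis, was at least 3.07-fold higher in the stable lines, STMN2, a stathmin gene of neurons, at least 2.87-fold, and EVI2A, which lies in an intron of NF1, at least 2.22-fold. BMF ranged from 6.63 to 8.54 and STMN2 from 6.55 to 8.56 in the stable lines, with 1 line high in each (MXD3 line 5 for BMF, vector line 1 for STMN2). MFHAS1, a leucine-rich repeat gene, differed by 1.96 ± 0.31, from 7.92 to 8.78 in the stable lines against 6.42 in the parental cells. In all, 53 of the genes tested were detected on all 7 stable lines and not on the parental array. Another 252 probes were detected on the parental array alone and were left out by the filter, which asked for 2 arrays.

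**Figure D1:**
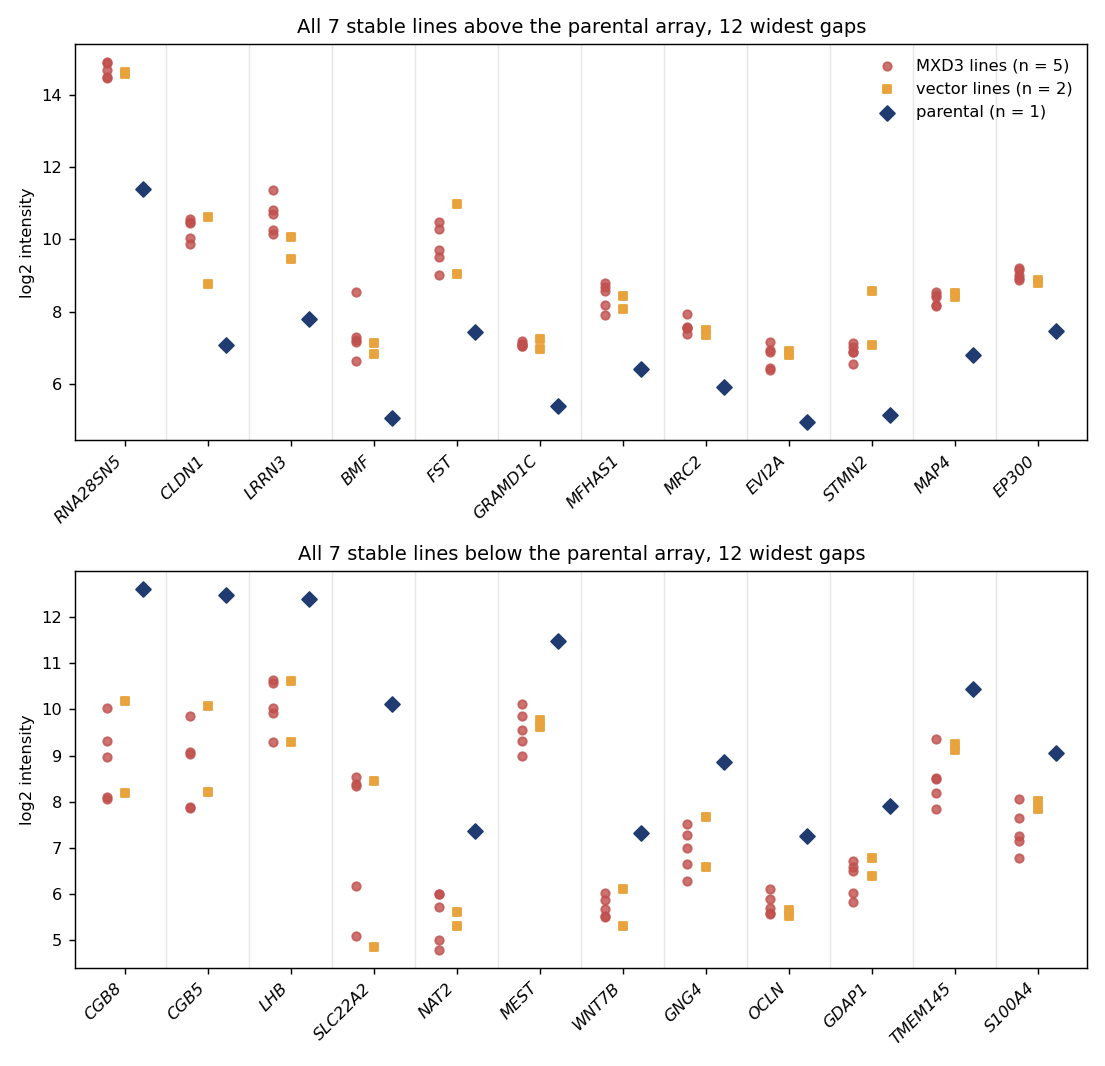
Log2 intensity (y axis) of the 12 genes with the widest gap above and the 12 with the widest gap below the parental array (x axis), with a circle for each of 5 MXD3 lines, a square for each of 2 vector lines and a diamond for the parental array. In every gene the 7 stable lines lie on one side of the diamond, with CLDN1 in vector line 2 at 8.77 closer to the parental 7.08 than the other lines, and SLC22A2 spread from 4.84 to 8.53 among the stable lines.

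The genes furthest below the parental array were those of glycoprotein hormone beta subunits. CGB8 and CGB5 encode the beta chain of chorionic gonadotropin, a hormone of the placenta that some tumours make, and LHB encodes that of luteinizing hormone. CGB8 read 10.03, 8.11, 8.06, 8.96 and 9.32 in MXD3 lines 1 to 5, 8.2 and 10.19 in vector lines 1 and 2, against 12.61 in the parental cells. The stable lines varied by over 2 log2 units, and still the nearest of them was 2.42 below the parental array. The difference was -3.63 ± 0.78 for CGB8 (12.3-fold lower, adjusted p = 0.167), -3.61 ± 0.79 for CGB5 (adjusted p = 0.171) and -2.34 ± 0.53 for LHB (adjusted p = 0.181), so 0 of the 3 passed. LHB read 9.29 to 10.64 in the stable lines and 12.39 in the parental cells. These genes lie side by side on chromosome 19 in RefSeq, in a stretch with 7 such beta subunit genes. The files measured 4 of them, and all 4 lay below the parental array in every stable line. Whether their probes bind each other's transcripts was not tested, so these 4 may not be separate measurements. The fourth, CGB7, chosen after its values were seen, was at 4.89 to 5.89 in stable lines, 2 of which detected it, and 6.58 in the parental cells. The nearest measured genes on either side of the stretch overlapped the parental array, with RUVBL2 at 0.07 ± 0.25 and LIN7B at -0.34 ± 0.40.

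CGB8 and CGB5 cannot be read as separate measurements, because the genes are near copies and a probe may bind both transcripts. Their promoters from RefSeq (GRCh38.p14, the 200 bases before each start) are shown for the likeness of the genes there. These bases lie before the transcript and do not bear on probe binding. Transcript and probe sequences were not compared, so whether a probe binds both was not tested. Over 189 aligned bases 184 were identical (97.4%), and capitals in CGB5 mark the 6 bases with no matching base in CGB8. CGB8 lies on the minus strand at chr19:49049112-49049311 and CGB5 on the plus strand at chr19:49043648-49043847.
CGB8: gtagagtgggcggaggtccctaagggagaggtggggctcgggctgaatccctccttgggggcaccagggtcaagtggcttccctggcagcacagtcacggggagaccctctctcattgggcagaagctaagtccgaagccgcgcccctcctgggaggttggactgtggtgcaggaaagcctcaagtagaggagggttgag
CGB5: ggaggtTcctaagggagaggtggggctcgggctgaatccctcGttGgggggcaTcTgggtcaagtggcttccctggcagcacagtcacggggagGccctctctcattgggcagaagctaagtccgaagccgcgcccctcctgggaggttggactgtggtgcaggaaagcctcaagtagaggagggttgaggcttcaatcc

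Other genes far below the parental array were MEST, an imprinted gene of the hydrolase family, WNT7B, a WNT ligand gene, and OCLN, which encodes the tight junction protein occludin. MEST read 9.85, 9.32, 10.12, 9.55 and 9.0 in MXD3 lines 1 to 5, 9.62 and 9.78 in vector lines 1 and 2, against 11.49 in the parental cells, a difference of -1.89 ± 0.35 (adjusted p = 0.147). A dimmer MEST probe, detected on 1 stable line, gave -0.46 and did not place all lines on one side. The ligand gene WNT7B was at 5.30 to 6.10 in the stable lines, 3 of which detected it, and 7.31 in the parental cells. With each stable value set no lower than its array's dimmest detected probe, WNT7B was at least 2.74-fold lower in the stable lines. Without that floor its difference was -1.60 (adjusted p = 0.147, limma). OCLN was at 5.52 to 6.11 in stable lines, 2 of which detected it, and 7.26 in the parental cells. It was at least 2.81-fold lower in the stable lines by the same floor. Without the floor the OCLN difference was -1.54 (adjusted p = 0.101, limma). SLC22A2, an organic cation transporter gene, split the stable lines, with 4 between 8.33 and 8.53 and 3 between 4.84 and 6.18, all below 10.12 in the parental cells, and 5 of 7 lines detected it. The arylamine acetyltransferase gene NAT2, detected on 3 of 7 stable lines, was at least 2.95-fold lower in the stable lines. The G protein subunit gene GNG4 (-1.87 ± 0.47), TMEM145 (-1.77 ± 0.51), GDAP1 (-1.52 ± 0.34), a mitochondrial outer membrane protein gene, and the calcium-binding protein gene S100A4 (-1.52 ± 0.44) made up the rest of the 12 furthest below.

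Cell cycle genes were read in lists by phase, and the difference between the lists was not tested. Here and in later lists, shares are to be read beside 17.3% above and 16.7% below over all genes. Of 42 measured G2/M and mitosis genes, 13 lay above the parental array in all lines (31.0% against 17.3% of all genes) and 3 below (7.14% against 16.7%), and the median difference was 0.27 against 0.00 over all genes. MKI67, the Ki-67 proliferation marker that coats mitotic chromosomes, read 9.10, 9.20, 9.34, 9.49 and 8.56 in MXD3 lines 1 to 5, 9.01 and 9.13 in vector lines 1 and 2, against 7.72 in the parental cells. The mitotic kinesin gene KIF4A read 11.63, 11.50, 11.66, 11.51 and 11.08 in MXD3 lines 1 to 5, 11.38 and 11.42 in vector lines 1 and 2, against 10.34 in the parental cells. MXD3 line 5 was the lowest stable line for both genes, and all 7 lines lay above the parental array for both. MKI67 differed by 1.40 ± 0.29 and KIF4A by 1.11 ± 0.22, each with an adjusted p of 0.152. The spindle factor gene TPX2 differed by 0.85 ± 0.22, and the phosphatase gene CDC25B, which starts mitosis, by 0.71 ± 0.21. PTTG1 (securin, -0.43 ± 0.23) and BIRC5 (survivin, -0.45 ± 0.28) were among the 3 below. MXD3 line 5 set the count, since without it 29 of the 42 genes (69.0%) lay above the parental array in all remaining lines, against 19.9% of all genes.

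Genes of the G1/S transition and of DNA replication had more members below than above. Of 41 measured, 3 lay above (7.32% against 17.3% of all genes) and 11 below (26.8% against 16.7%), with a median of -0.08. GINS1, a subunit of the replicative helicase complex, differed by -0.75 ± 0.26, CCNE1, which encodes cyclin E1, by -0.71 ± 0.29, the clamp loader gene RFC2 by -0.57 ± 0.25 and the helicase gene MCM5 by -0.50 ± 0.24. CCNE1 ranged from 7.79 to 8.60 in the stable lines, with a median of 8.22, against 8.90 in the parental cells. PRIM2, a primase subunit (0.59 ± 0.24), and POLE, the catalytic subunit of polymerase epsilon (0.43 ± 0.22), lay above the parental array. None of the 41 and 42 genes passed over all genes tested. Of 17 measured replication-dependent histone genes, 7 lay above (41.2% against 17.3%) and 1 below (5.88% against 16.7%), with a median of 0.36. H2BC11 (0.42 ± 0.20) and H1-2 (0.56 ± 0.31) were among those above. Histone genes have near-identical copies, so single members are uncertain. Of 7 CDK inhibitor and RB family genes 2 lay above and 0 below. CDKN1C was detected on 6 of 7 stable lines and not on the parental array, and the stable mean was at least 1.43-fold higher. Vector line 2 was lowest at 5.37, and the difference from the undetected parental reading had an adjusted p of 0.41 (limma). Of 20 p53 targets 5 lay above (25.0%) and 4 below (20%), with a median of 0.05, and under median scaling 3 lay above and 6 below. TP53INP1, a stress-induced gene of autophagy and apoptosis, was at 1.63 ± 0.50 and the oxidoreductase gene TP53I3 at -1.04 ± 0.44, and SESN2, a sestrin gene, was at least 2.01-fold higher in the stable lines.

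**Figure D2:**
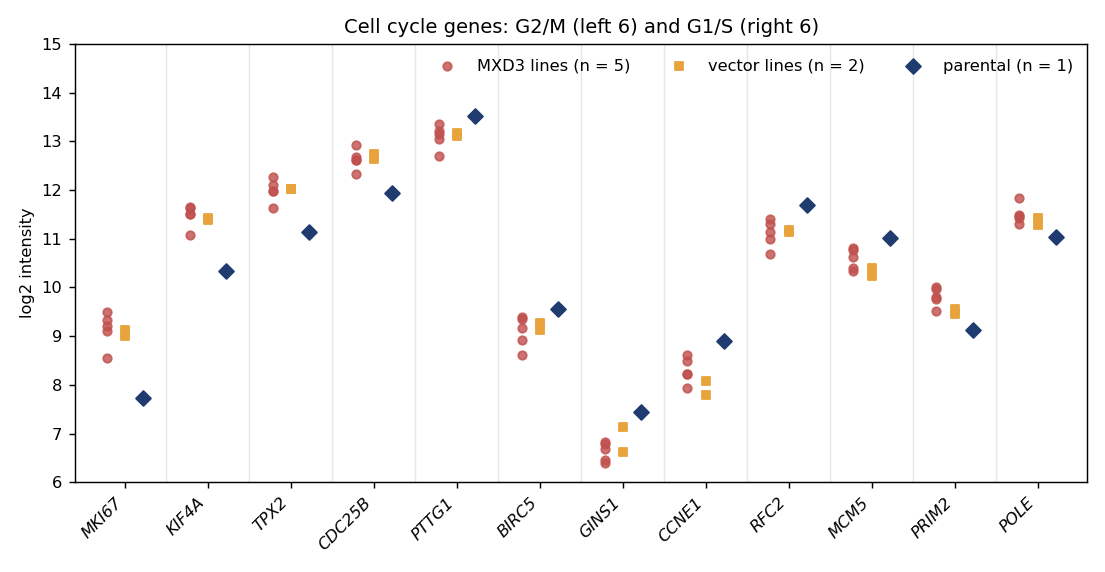
Log2 intensity (y axis) of 6 G2/M and 6 G1/S genes (x axis), with a circle for each of 5 MXD3 lines, a square for each of 2 vector lines and a diamond for the parental array. MKI67, KIF4A, TPX2 and CDC25B lie above the diamond in all 7 lines, and GINS1, CCNE1, RFC2 and MCM5 below it.

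The promoters of MKI67 and KIF4A are shown because many G2/M genes carry the cell cycle genes homology region, a late-cycle element read by the DREAM complex. The letters TTTGAA were searched on both strands in the 200 bases before each start, and are in capitals. They occurred in 10.3% of 35116 RefSeq promoters. A gene was counted if any of its promoters held them, so shares of genes and of promoters are in different units. By that rule 18 of the 35 measured G2/M genes that had a promoter in the table held them (51.4%). So did 5 of the 8 of these that lay above the parental array (BUB1B, KIF11, KIF4A, PRC1 and MKI67). For a gene with several promoters, the one with the most copies is shown. MKI67 lies on the minus strand at chr10:128126424-128126623 and KIF4A on the plus strand at chrX:70289904-70290103 (GRCh38.p14).
MKI67: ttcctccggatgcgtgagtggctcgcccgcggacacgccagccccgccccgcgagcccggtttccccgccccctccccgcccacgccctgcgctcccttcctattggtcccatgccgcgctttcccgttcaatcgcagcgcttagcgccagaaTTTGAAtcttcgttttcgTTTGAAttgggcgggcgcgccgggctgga
KIF4A: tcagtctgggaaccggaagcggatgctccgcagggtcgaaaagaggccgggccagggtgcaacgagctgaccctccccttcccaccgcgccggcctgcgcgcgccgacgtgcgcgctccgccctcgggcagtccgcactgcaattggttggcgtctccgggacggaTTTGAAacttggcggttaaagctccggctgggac

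Interferon response genes differed member by member. Of 33 measured, 8 lay above the parental array in all lines (24.2% against 17.3%) and 2 below (6.06% against 16.7%), with a median of 0.06, and 0 passed. IFIT1, whose protein binds foreign RNA that lacks a self cap and blocks its translation, read 8.21, 8.14, 7.75, 8.12 and 7.78 in MXD3 lines 1 to 5, 7.72 and 7.87 in vector lines 1 and 2, against 6.41 in the parental cells. The 7 lines lay within 0.5 of each other and at least 1.31 above the parental array, and the difference was 1.53 ± 0.23 (adjusted p = 0.101). IFIH1 encodes MDA5, a sensor of long double-stranded RNA. It ranged from 9.51 to 9.82 in the stable lines, with a median of 9.65, against 9.05 in the parental cells (0.62 ± 0.18, adjusted p = 0.291). IFIT3 differed by 0.81 ± 0.29 with its brightest probe and by -0.41 and 0.08 with 2 others, which did not place all lines on one side. The 2 genes below were OAS1 (-0.36 ± 0.27), a 2′-5′ oligoadenylate synthetase gene, and IFITM2 (-0.30 ± 0.27), an antiviral membrane protein gene.

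The promoters of IFIT1, IFIT3 and IFIH1 are shown for the interferon-stimulated response element, the site of the ISGF3 factor. The letters GAAA, any 2 bases and again GAAA were searched on both strands of the 200 bases before each start and are in capitals, and overlapping copies run together. They occurred in 2.4% of the 35116 promoters. Counted by gene, with any promoter enough, 16 of 24 measured interferon genes with a promoter in the table held them (66.7%). So did 5 of the 6 of these that lay above the parental array (IFIT1, IFIT3, IFIT5, IFIH1 and OAS3). Shares of genes and of promoters are again in different units, and the promoter with the most copies is shown. IFIT1 lies on the plus strand at chr10:89392423-89392622, IFIT3 on the plus strand at chr10:89327797-89327996 and IFIH1 on the minus strand at chr2:162318685-162318884 (GRCh38.p14).
IFIT1: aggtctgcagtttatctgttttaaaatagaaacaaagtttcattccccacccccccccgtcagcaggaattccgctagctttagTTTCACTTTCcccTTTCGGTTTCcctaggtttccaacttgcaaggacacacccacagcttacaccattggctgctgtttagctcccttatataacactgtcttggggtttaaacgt
IFIT3: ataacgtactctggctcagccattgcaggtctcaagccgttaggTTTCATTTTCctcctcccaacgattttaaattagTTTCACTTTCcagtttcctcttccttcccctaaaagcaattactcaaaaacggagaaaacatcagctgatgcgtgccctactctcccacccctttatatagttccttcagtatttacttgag
IFIH1: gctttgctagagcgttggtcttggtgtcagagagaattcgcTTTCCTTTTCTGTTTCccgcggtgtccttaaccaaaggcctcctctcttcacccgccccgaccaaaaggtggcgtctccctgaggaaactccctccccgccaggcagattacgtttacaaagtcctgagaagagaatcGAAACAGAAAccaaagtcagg

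Antigen presentation and NF-kB genes had larger medians. Of 12 measured genes of MHC class I presentation 6 lay above (50% against 17.3% of all genes) and 1 below (8.33% against 16.7%). The median was 0.32. TAPBP, which encodes tapasin, a loading factor of the MHC class I peptide complex, ranged from 10.62 to 11.41 in the stable lines (median 11.11) against 9.79 in the parental cells. Its difference was 1.29 ± 0.30 (adjusted p = 0.189) with the brightest probe and 0.35 and 0.16 with 2 dimmer probes, which did not place all lines on one side. The peptide transporter gene TAP2 was at 0.62 ± 0.23 and HLA-B, a class I heavy chain whose alleles and paralogs a probe may not separate, at 0.68 ± 0.32. Of 29 NF-kB, cytokine and chemokine genes 9 lay above (31.0%) and 3 below (10.3%), with a median of 0.56, the largest over the lists with at least 5 measured genes. The NF-kB subunit genes RELB (0.91 ± 0.27) and NFKB2 (0.85 ± 0.33) and the inhibitor gene TNFAIP3 (1.38 ± 0.60) lay above. TNF, undetected on the parental array and detected on 6 of 7 lines, was at least 1.92-fold higher in the stable lines. IL11, an interleukin of the IL6 family, lay below (-1.22 ± 0.54). This list divided the stable lines, with a mean minus parental of -0.37 in vector line 2 and 0.33 to 1.07 in the others, and without vector line 2 15 of 29 lay above (51.7% against 20.6% of all genes).

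Immediate early genes gave 4 above (17.4%) and 3 below (13%) of 23, near the shares of all genes (17.3% and 16.7%). KLF6 was at 0.79 ± 0.26, MYC at 0.54 ± 0.29 and ZFP36, an mRNA decay factor gene, at -0.68 ± 0.34. Of 22 targets of YAP and TEAD, the growth-promoting end of the Hippo pathway, 7 lay above (31.8%) and 0 below, with a median of 0.25 that was 0.34 over the MXD3 lines and 0.00 over the vector lines. ASAP1 (0.79 ± 0.22) and MYOF (0.63 ± 0.22) led them.

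Heat shock proteins and chaperones had no member above the parental array in all lines, and none passed the test. Of 22 measured, 0 lay above and 8 below (36.4% against 16.7%), with a median of -0.17, -0.20 over the MXD3 lines and -0.15 over the vector lines. HSPA8, the constitutive HSP70 of the cytosol, read 15.17, 15.35, 15.28, 15.22 and 15.52 in MXD3 lines 1 to 5, 15.38 and 15.15 in vector lines 1 and 2, against 15.73 in the parental cells. The gap is small beside those above, and the difference was -0.43 ± 0.19. The co-chaperone gene DNAJB4 (-0.54 ± 0.19) and the mitochondrial chaperonin genes HSPD1 (-0.50 ± 0.25) and HSPE1 (-0.40 ± 0.22) lay below too. All 3 detected HSPD1 probes were negative, with all lines below the parental array. Unfolded protein response genes gave 2 above and 4 below of 22 (median -0.09), with PDIA6 at -0.44 ± 0.23 and HYOU1 at 0.53 ± 0.26.

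Genes of ribosome assembly had different medians in the 2 kinds of line, a difference that was not tested. Of 25 nucleolar ribosome assembly genes 1 lay above (4% against 17.3% of all genes) and 9 below (36.0% against 16.7%), with a median of -0.32. But the median was -0.40 over the MXD3 lines and -0.02 over the vector lines. Both medians share the parental array. WDR12 (-0.50 ± 0.22), BYSL (-0.35 ± 0.21) and NCL, which encodes nucleolin (-0.57 ± 0.29), lay below, and UBTF, a factor of RNA polymerase I (0.45 ± 0.23), above. Of 42 mitochondrial ribosomal protein genes 0 lay above and 9 below (21.4%), with a median of -0.13, and MRPL10, detected on 5 of 7 lines, was at least 1.92-fold lower in the stable lines. Without vector line 2 the counts below were 17 of 25 for nucleolar (68.0%) and 19 of 42 for mitochondrial ribosomal genes (45.2%), against 20.4% of all genes, and 10 of 38 for cytosolic ribosomal proteins (26.3%). Translation factors gave 3 above and 5 below of 33 (2 and 8 under median scaling, 3 and 3 with the authors' normalized values, 6 and 6 with span regressed out), and tRNA synthetases 1 above and 1 below of 19. Of 14 nonsense-mediated decay genes, a pathway that reads premature stops, 4 lay above (28.6%) and 1 below, led by the kinase gene SMG1 (0.81 ± 0.20).

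**Figure D3:**
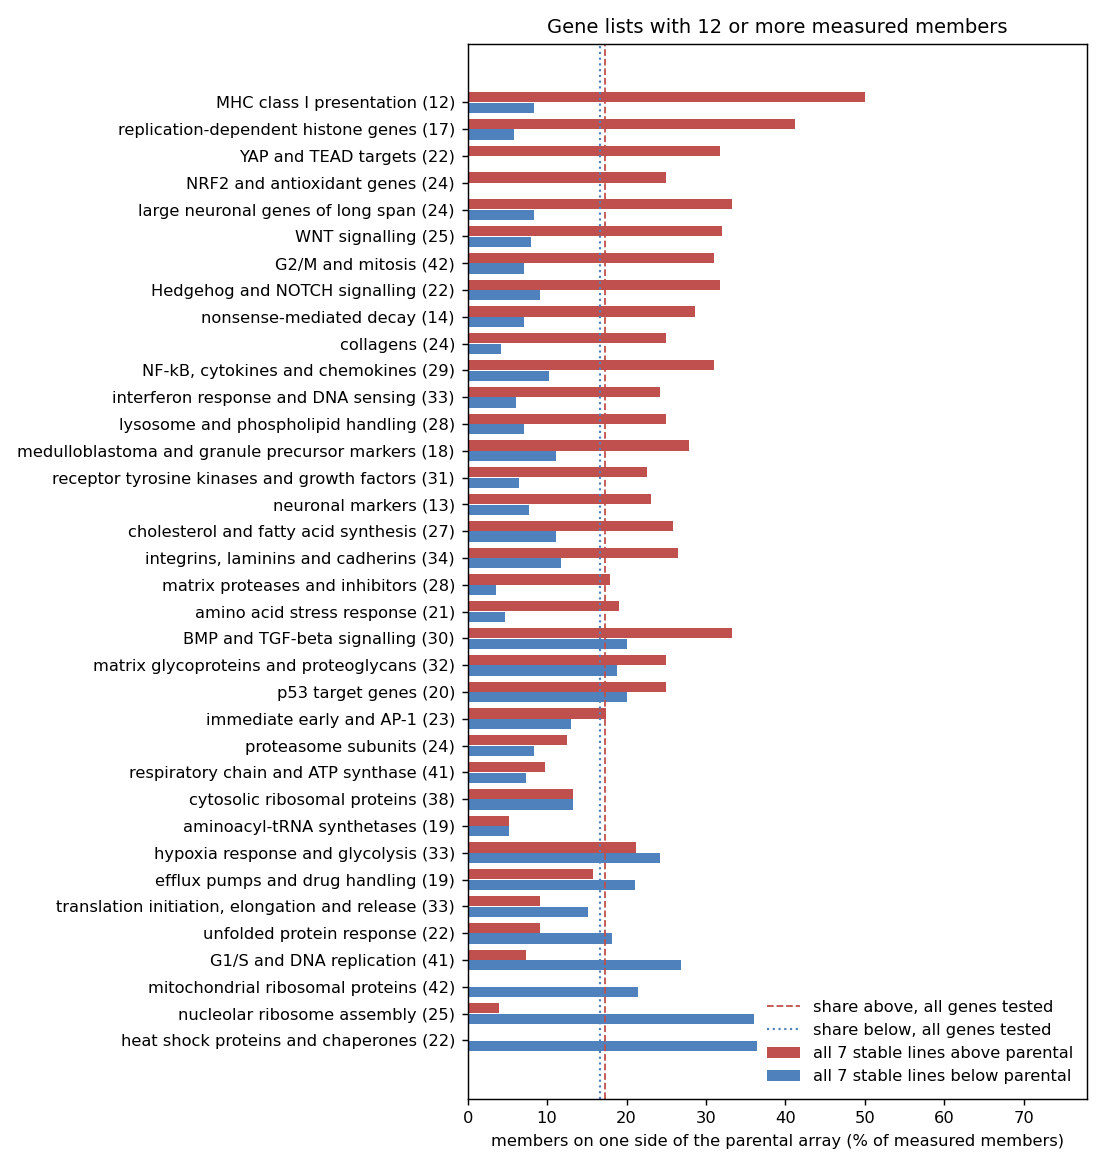
Share of measured members (x axis, percent) with all 7 stable lines above (upper bar) or below (lower bar) the parental array, for lists with 12 or more measured genes (y axis, number measured in brackets), with dashed and dotted lines at the 17.3% and 16.7% of all genes. MHC class I presentation reaches 50% above, and heat shock proteins 36.4% below with 0 above.

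Matrix and adhesion lists held more members above than below the parental array, some by little. Of 24 collagen genes 6 lay above (25.0%, against 17.3% of all genes) and 1 below (4.17%, against 16.7%), with a median of 0.23. COL12A1, a fibril-associated collagen, ranged from 7.00 to 8.02 in the stable lines (median 7.68) against 6.14 in the parental cells (1.44 ± 0.39), and the basement membrane collagen gene COL4A2 was at 0.90 ± 0.22. Fibrillin 2, a microfibril protein, is encoded by FBN2. It read 11.49, 11.45, 11.19, 11.42 and 10.97 in MXD3 lines 1 to 5, 11.57 and 11.02 in vector lines 1 and 2, against 9.88 in the parental cells. MXD3 line 5 and vector line 2 were the lowest stable lines and still lay over 1 above the parental array (1.42 ± 0.25, adjusted p = 0.137). Over the 32 matrix glycoprotein and proteoglycan genes 8 lay above (25.0%) and 6 below (18.8%), with FBN1 at 1.11 ± 0.32 and the syndecan gene SDC1 at -0.69 ± 0.21. Of 34 integrins, laminins and cadherins 9 lay above (26.5%) and 4 below (11.8%), or 6 and 5 with gene span regressed out, with the collagen-binding integrin gene ITGA1 at 1.71 ± 0.48, the laminin gene LAMB2 at 1.03 ± 0.30 and LAMC3, detected on 6 of 7 lines, at -1.87 ± 0.87. LAMC3 was at -2.39 over the MXD3 lines and -0.57 over the vector lines, each against the same parental array. Of 28 matrix proteases and inhibitors 5 lay above (17.9%, near the share of all genes) and 1 below, with the crosslinking enzyme gene LOXL1 at 0.92 ± 0.35 and the gelatinase gene MMP2 at 0.71 ± 0.24.

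Developmental signalling lists also had more members above than below, with exceptions among BMP targets. With gene span regressed out, BMP and TGF-beta genes gave 9 above and 7 below. WNT genes then gave 6 and 3, and Hedgehog and NOTCH genes 6 and 2. Of 30 BMP and TGF-beta genes 10 lay above (33.3% against 17.3% of all genes) and 6 below (20% against 16.7%). The median was 0.21, though 0.04 over the vector lines. The type II receptor gene BMPR2 (0.97 ± 0.20), the transducer gene SMAD3 (1.15 ± 0.36) and the activin receptor gene ACVR2A (0.71 ± 0.28) lay above, beside the antagonist FST. ID1 and ID2, which encode inhibitors of differentiation and are known BMP targets, lay below. ID1 read 12.53, 12.08, 12.49, 12.28 and 12.36 in MXD3 lines 1 to 5, 12.45 and 12.47 in vector lines 1 and 2, against 13.18 in the parental cells (-0.80 ± 0.20, adjusted p = 0.211). A dimmer ID1 probe gave -2.22, again with all 7 lines below. ID2 ranged from 9.33 to 9.84 in the stable lines (median 9.63) against 10.42 in the parental cells (-0.81 ± 0.20, adjusted p = 0.211). For both genes the stable lines of either plasmid lay together, clear of the parental array. Both were named for a wide gap with all lines on one side, so the choice itself favoured this.

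In the WNT list 8 of 25 genes lay above (32% against 17.3% of all genes) and 2 below (8% against 16.7%), with a median of 0.21. The transcription factor genes TCF7L2 (0.89 ± 0.27) and TCF7L1 lay above, the second detected in 3 stable lines and not in the parental cells, while WNT7B and the frizzled receptor gene FZD5 (-0.61 ± 0.31) lay below. Of 22 Hedgehog and NOTCH genes, pathways that guide cerebellar precursors, 7 lay above (31.8%) and 2 below, with a median of 0.26. PTCH1, the Hedgehog receptor and itself a target of the pathway, read 6.62, 6.49, 7.37, 7.13 and 6.82 in MXD3 lines 1 to 5 and 6.47 and 6.63 in vector lines 1 and 2. On the parental array it was not detected, so PTCH1 was at least 2.22-fold higher in the stable lines. The adjusted p of 0.2 (limma) belongs to the difference from the undetected parental reading, not to that bound. The negative regulator SUFU was at 0.86 ± 0.35 and the receptor NOTCH1 at 0.95 ± 0.38, and the NOTCH effector HEY1 at -0.53 ± 0.25. Among 31 receptor tyrosine kinases and growth factors 7 lay above (22.6% against 17.3%) and 2 below (6.45% against 16.7%). IGF1R was at 0.71 ± 0.22. The hepatocyte growth factor gene HGF, detected on 4 of 7 lines, was at least 1.42-fold lower in the stable lines.

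Metabolic and stress lists varied, and several turned with the scaling. Of 27 genes of cholesterol and fatty acid synthesis 7 lay above (25.9%) and 3 below, with a median of 0.00. SREBF2, the transcription factor that drives sterol synthesis, ranged from 10.22 to 10.66 in the stable lines (median 10.33) against 9.39 in the parental cells (1.01 ± 0.22, adjusted p = 0.171). Of 24 NRF2 and antioxidant genes 6 lay above (25.0%) and 0 below (median 0.06), led by the reductase gene AKR1C3 (1.38 ± 0.58). Hypoxia and glycolysis genes gave 7 above and 8 below of 33 (8 and 6 with the authors' normalized values), with the hormone gene ADM at 1.38 ± 0.67 and the carbonic anhydrase gene CA12 at -1.41 ± 0.56. Lysosomal genes gave 7 above (25.0%) and 2 below of 28. Proteasome genes gave 3 above and 2 below of 24, but 2 and 6 under median scaling and 3 and 4 with the authors' normalized values. Respiratory chain genes gave 4 above and 3 below of 41, but 3 and 4 under median scaling and 9 and 2 with gene span regressed out. Metallothionein and zinc genes gave 1 above and 1 below of 8. Amino acid stress genes gave 4 above and 1 below of 21. Of 19 efflux pumps and drug handling genes, a mixed list that includes ABC transporters and conjugating enzymes, 3 lay above and 4 below (median -0.16). CYP26B1 was at -1.25 ± 0.63 and GSTM3 at -0.54 ± 0.26.

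**Figure D4:**
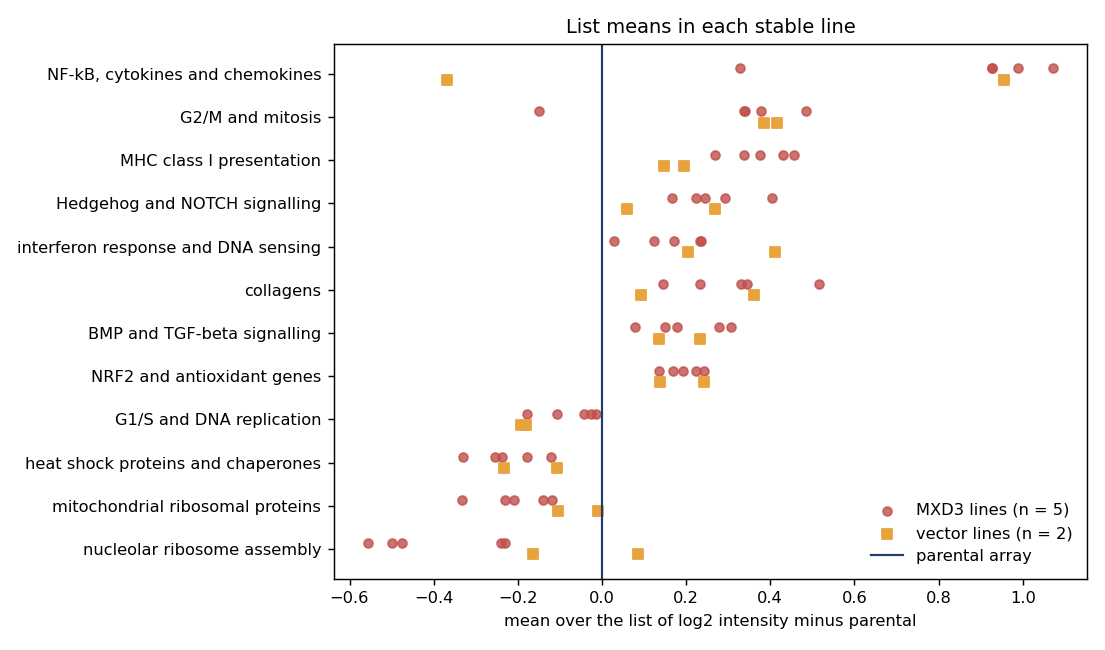
Mean over each list of log2 intensity minus the parental array (x axis) for 12 gene lists (y axis), with a circle for each of 5 MXD3 lines and a square for each of 2 vector lines, and the parental array as the line at 0. MXD3 line 5 stands apart for G2/M genes at -0.15, and vector line 2 for NF-kB genes at -0.37, while heat shock genes lie below 0 in all 7 lines.

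Markers of the tissue and of other cell types were read for the label of the line. Of 25 medulloblastoma and granule precursor markers 18 were measured, with 5 above (27.8%) and 2 below, and line means from 0.03 to 0.33 above the parental array. EN1, an engrailed gene of the midbrain and cerebellum, was not detected on the parental array and at least 1.5-fold higher in the stable lines, and SOX9 was at 1.10 ± 0.48. ATOH1, ZIC1, GLI1 and MYCN did not meet the filter of detection on at least 2 arrays and so were not tested. Of 18 neuronal markers 13 were measured, with 3 above and 1 below and line means from 0.16 to 0.65, where vector line 1 was highest. Of 15 glial markers 7 were measured (2 above, 1 below, line means from -0.15 to 0.24), without GFAP, S100B and AQP4. Epithelial markers gave 0 above and 2 below of 8 (line means from -0.45 to -0.17), without KRT5 and KRT14, and blood and endothelial markers 0 above and 0 below of 8 (-0.29 to 0.23), without HBB, SPI1 and PECAM1. Their part in the other results was not tested.

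The sign of the difference moved with the length of the gene. The span is the distance from start to end, introns included, in RefSeq (12154 of 12162 genes). These genes were cut into 5 groups of like size by span. In the group of shortest genes, with a median span of 4.86 kb, 11.1% lay above and 20.8% below the parental array in all lines. In the group of longest genes, with a median of 164 kb, 27.5% lay above and 10.8% below. Between these the share above was larger, and the share below smaller, in each longer group. The median difference was -0.06 in the shortest group and 0.14 in the longest. Genes with all lines above had a median span of 49.4 kb, those with all lines below 22.8 kb, and all genes 29.6 kb. Across genes, which are not independent, Spearman's rho between span and difference was 0.17 over all lines, 0.12 to 0.17 for each stable line minus the parental array, and -0.08 to 0.07 for each of the 21 differences between 2 stable lines. The 7 differences from the parental array share that array.

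**Figure D5:**
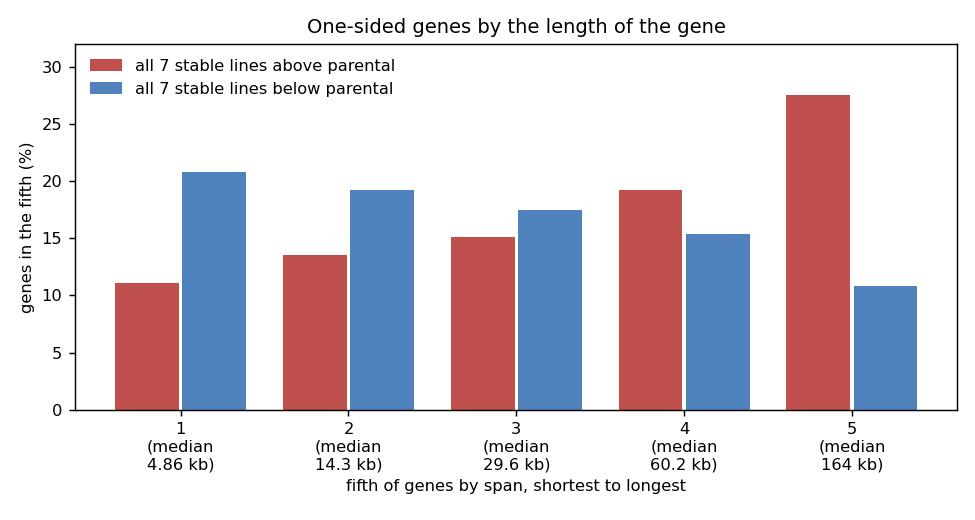
Share of genes (y axis, percent) with all 7 stable lines above (left bar) or below (right bar) the parental array, in 5 groups of genes by span (x axis, shortest to longest). The share above is 11.1% in the shortest and 27.5% in the longest group, and the share below 20.8% and 10.8%.

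Single genes ran both ways. Among genes above the parental array MAP4 spans 238154 bases and FBN2 280337, but RNA28SN5 5070, EVI2A 5213 and FST 6506. Among genes below it CGB8 spans 1474 bases and ID1 1222, but GDAP1 138470 and GNG4 102924. A list labelled large neuronal genes of long span also held genes, such as LPP, that are not particular to neurons. Of its 24 measured genes 8 lay above (33.3%) and 2 below, with a median of 0.17, which was -0.10 once span was regressed out. LPP, a focal adhesion gene, differed by 0.82 ± 0.19, and the very long genes WWOX (at least 2.27-fold lower in the stable lines, detected on 6 of 7) and DMD (-1.17 ± 0.41) had the opposite sign. With span regressed out the collagen median was 0.07 in place of 0.23, the heat shock count below was 5 of 22 in place of 8, and the nucleolar count 6 of 25 in place of 9. The G2/M count stayed at 13 above and 3 below, and the interferon count was 9 above and 1 below. Span and the group thus moved together on these arrays, and the part of span in the results above was otherwise not tested.

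The MXD3 and vector lines can be set side by side, but each comparison rests on the same parental array. In a fit of 3 groups 1 gene passed for the MXD3 lines and 1 for the vector lines (0.00822% each), which was RNA28SN5 in both. At an unadjusted p under 0.05 there were 902 higher (7.42%) and 665 lower (5.47%) in the MXD3 lines, and 538 higher (4.42%) and 326 lower (2.68%) in the vector lines. All 5 MXD3 lines lay above the parental array for 2816 genes (23.2%) and below for 2773 (22.8%). Both vector lines lay above for 4182 genes (34.4%) and below for 4193 (34.5%), a rule that fewer arrays meet more easily. CLDN1 differed by 3.20 in MXD3 lines and 2.62 in vector lines, FST by 2.36 and 2.56, MKI67 by 1.42 and 1.35, IFIT1 by 1.59 and 1.39, and CGB8 by -3.71 and -3.42, in the same order. These genes were named because all stable lines lay on one side of the parental array. That choice fixed the shared sign, so the shared sign is no result. Vector line 2 was the stable line nearest to the parental array in 24.9% of the 4136 one-sided genes, against 8.82% to 16.1% for each of the other 6.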

How the data were processed

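RNA from 8 cultures was read on Illumina bead arrays. The deposited table gives probe intensity on a linear scale, and per the file header it was not normalized. Beside it stands the deposited detection p-value, which sets a probe against the array's negative controls. BeadStudio, with no version, is named in the submitters' processing notes. The authors' series matrix holds the same intensity values after a background constant and a scale factor per array, with a mean of 1363 on every array. The choice of these constants is not given in the sources.

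The neqc function of limma 3.58.1 (R 4.3.3) corrected the background with inferred negative controls, added an offset of 16, applied quantile normalization and took log2. Probes detected (p under 0.05) on at least 2 arrays were kept. The brightest probe by mean stood for its gene, named by the platform annotation through Entrez IDs in RefSeq (GRCh38.p14). Of 22184 probes 19715 had 1 gene symbol, 0 had several and 2469 had none. No pair of arrays was a copy, as the SD of their log2 difference was at least 0.395. The number of arrays limits the precision.

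The 7 stable lines were compared with the parental array in a two-sided limma fit (lmFit, eBayes), with p-values adjusted over 12162 genes by Benjamini and Hochberg. A fit of 3 groups set MXD3 and vector lines side by side. The script was checked on simulated data. Gene lists and their members were chosen with earlier results of these data known, so their counts are descriptions. Named genes are those past the threshold, the 12 with the widest gap in each direction (detected on all 7 lines or on the parental array), and in each list up to 4 one-sided members in the more common direction and 2 in the other. Alternatives were other background corrections, scalings, filters, probe rules and subsets of lines, and, chosen after seeing the data, gene span regressed out.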

Additional observations from a re-analysis of the deposited data

Results flagged for a closer look

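In 16 of 224 named genes and 3 of 41 lists 1 stable line stood apart from the other 6 by more of the range than Dixon's critical value allows, which chance alone gives in about 1 in 20 groups. All values are log2 intensities. MXD3 line 5 was high for BMF (8.54) and for the proteasome gene PSMB7 (15.52) and low for the ribosome assembly gene WDR12 (11.84) and the collagen receptor gene DDR2 (9.59). MXD3 line 4 was high for MRC2 (7.93), POLE (11.84) and the cytochrome c oxidase gene COX4I1 (15.01), and low for the nucleolar gene NOP58 (12.70) and the stress response factor gene XBP1 (11.05). MXD3 line 1 was high for the translation gene EIF4G2 (14.79) and low for the glycolysis gene PGK1 (12.90), and MXD3 line 3 was high for the chaperone gene HYOU1 (10.61). Vector line 1 was high for the neuronal genes STMN2 (8.56) and MAP2 (8.69) and low for the histone gene H4C3 (15.61), and vector line 2 was low for CLDN1 (8.77).

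Of the list means minus the parental array, G2/M and mitosis stood at -0.15 in MXD3 line 5, efflux pumps and drug handling at -0.53 in MXD3 line 2, and neuronal markers at 0.65 in vector line 1. Among the probes with no gene name, which the comparisons did not use, 3 had all 7 stable lines above the parental array by at least 1 log2 unit.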

How the results depend on the processing

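No paired analysis was possible because the parental array has no replicate number to share with a stable line. The 2 genes higher past the threshold became 7 with no filter on dim probes, 6 with detection on all 8 arrays and 7 with detection on the parental array or 4 stable lines. The 5 genes that joined RNA28SN5 in each of these were MAP4, EP300, MRC2, SPTAN1 and HUWE1, and the count lower became 1 (DEFB132) under the first and last of these. It was 1 gene higher with 3 groups at equal weight, 1 with the MXD3 lines alone and 0 with the vector lines alone, where 4182 genes lay above and 4193 below the parental array. Leaving out 1 line gave 1 to 3 higher and 0 to 1 lower, with 2221 to 2508 genes above and 2161 to 2476 below. The highest of the first count was without vector line 2, which added CLDN1 and, lower, SLC27A5. RNA28SN5 passed under 17 of 18 alternatives (log2 difference 3.21 to 3.32, adjusted p 8.47e-05 to 0.5), failing with the vector lines alone. GRAMD1C passed under 8 of 17 (0.92 to 2.47, adjusted p 0.00474 to 0.72) and was not tested where detection on all 8 arrays was required. Of 224 named genes, those that turned direction were RPS16 (-0.033) and RPL8 (-0.107) under median scaling, RPL8 (-0.047) with the series matrix values and RPL8 (-0.37) with the mean of its probes, and the cause was not tested. Median scaling gave 1890 genes above and 2189 below, and the series matrix 2337 and 1666. Of 74 counts of list members above or below, 7 grew by over 1.5 times without vector line 2, 5 without MXD3 line 5, and 1 to 3 without any other line. Probes not above background give only a bound. Of the genes named in the report, RFC2 (-0.27), TP53I3 (-0.69), OAS1 (-0.03), COL12A1 (0.33), LOXL1 (0.30) and WWOX (-0.45) also had a dimmer probe of the same sign that did not place all lines on one side.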
